A study of Mus musculus with 6 samples.

Results

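The genes described here encode the protein complexes of the apical junction and of apical-basal polarity. They were chosen by name as 44 genes, and each was represented by its brightest probe set annotated to that gene alone. Such a probe set was found for 43 of the 44, out of 19938 genes measured in all, and Magi2 is not analysed here. The array annotation gave Pals1 as Mpp5 and the nectin genes Pvrl1, Pvrl2 and Pvrl3 under their Nectin symbols.

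Total RNA came from cells sorted by fluorescence from mouse brain, all of strain C57BL/6J, and was hybridised to 6 whole-transcript arrays, 1 per sample. The first group was 3 samples of GFP+ cortical neural progenitors, and the second was 3 samples of RFP+ neuronal progeny, whose tissue is labelled only as brain. Both reporters belong to a dual reporter design, and the labels do not state the promoters that drive them or the age of the animals. Nothing states whether samples came from separate animals, so a p-value here speaks only of the spread among these 6 samples, which may be technical, and region cannot be told apart from cell type where the labels differ.

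In the developing cortex, radial glia form a neuroepithelium whose apical endfeet line the ventricle and are joined by adherens junctions. Cadherins in these junctions are tied to actin through catenins, nectins are tied to it through afadin, and the Par, Crumbs and Scribble protein groups mark out the apical and basolateral membrane. Newborn neurons leave this surface, and the polarity proteins then also serve in the making of axons, dendrites and synapses. Several junction proteins of this kind are abundant in brain endothelium as well.

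Values are array intensities on a linear scale, and every difference is the GFP+ mean minus the RFP+ mean of log2(intensity + 16), in log2 units and with its standard error (SE). A group mean is given ± SD over its arrays (n = 3 per group). Folds come from the log2 means and understate the change of dim genes. Each gene was tested with limma over all 19938 genes without a filter on dim genes, and passed at a Benjamini-Hochberg adjusted p under 0.05. Olfactory receptor genes guided the near-background level: 95% of them had a mean below 211 in the GFP+ group and below 206 in the RFP+ group, and a gene below that value in a group is called dim there. In a check of the labels, all 9 radial glia and all 6 intermediate progenitor markers were higher in GFP+ progenitors (median log2 differences 2.33 and 2.13), as were all 5 markers of dividing cells (2.44), and all 9 neuronal markers were higher in RFP+ neurons (median -1.77). Of 16 endothelial markers, 14 were higher in GFP+ progenitors, with a summed intensity of 2873 to 8706 on the GFP+ arrays and 1202 to 1427 on the RFP+ arrays. Of 12 mural markers, 9 were higher in GFP+ progenitors, with sums of 7044 to 8686 on the GFP+ arrays and 1459 to 1650 on the RFP+ arrays. The choroid plexus and ependyma list had 1 of 9 genes called each way, Foxj1 higher in the progenitors and Clic6 higher in the neurons. Ttr of that list did not pass. It had an intensity of 1204 on RFP+ replicate 3, against 11.5 and 41.3 on RFP+ replicates 1 and 2. On the GFP+ arrays Ttr had 13.9, 8.03 and 61.8. The meningeal list had 3 of 9 called higher in the progenitors, and the microglial list had 1 of 9 called higher in the neurons. The 3 red cell genes measured did not pass (median 0.48). The part of endothelial or mural RNA in the differences between the groups was not tested. In sorted bulk samples, fewer cells of a type and less RNA per cell cannot be told apart.

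Junction and polarity genes were split between the groups, with more of them higher in GFP+ progenitors. Of the 43 measured genes, 17 (39.5%) were higher in GFP+ progenitors, where 13.8% of all genes tested were. Another 7 (16.3%) were higher in RFP+ neurons, close to the 16.2% of all genes. In either direction 24 of 43 passed (55.8%), beside 30% of all genes, and 19 did not pass. These counts come from a fit without pairing of the arrays. A fit that paired arrays by replicate number called 18 of the 43 higher in GFP+ progenitors and 10 higher in RFP+ neurons. Of all 19938 genes that fit called 3324 and 4047. The 3 GFP+ arrays did not overlap the 3 RFP+ arrays for 27 of the 43 genes (62.8%), beside 43.9% of all genes. The median log2 difference of the 43 genes was 0.28, and that of all genes was -0.08. A change of at least 2-fold was seen for 14 of the 17 and for 3 of the 7. The matching shares of all called genes were not computed. Crb1, F11r and Lin7a among these were dim in both groups, where the fold depends on the offset. Jam2 had the highest difference of the set and Ctnna2 the lowest. The counts by complex given below stand beside the same 13.8% and 16.2% of all genes. Each complex holds few genes, and these counts were not tested.

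**Figure D1:**
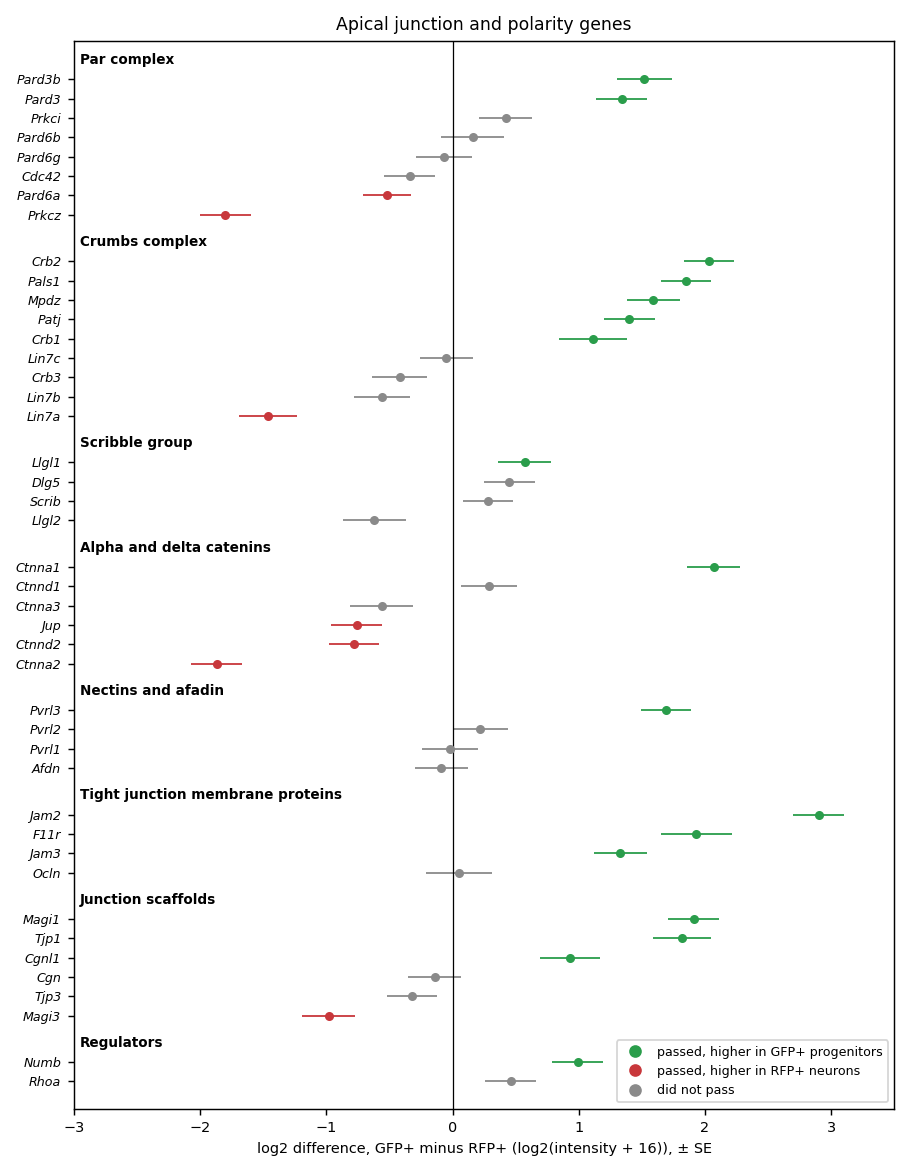
Log2 difference (GFP+ minus RFP+, log2(intensity + 16) scale) of the 43 measured genes, one point per gene with its SE as a bar, arranged by protein complex and coloured by the limma call. The 4 tight junction membrane proteins lie to the right of 0, Ocln only just, and 5 of 9 Crumbs complex genes do. The catenins lie on both sides, and the extremes are Jam2 at 2.90 and Ctnna2 at -1.87.

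Promoter sequences of 4 genes are shown because these genes had the 2 largest differences each way among genes that passed and held one of 3 searched motifs, a choice made after their values were seen. They are RefSeq sequences of build GRCm38.p6, each the 250 bases before an annotated transcription start, read 5′ to 3′ on the gene's strand, with the motifs in capitals. F11r and Magi1 were higher in the progenitors, Ctnna2 and Prkcz in the neurons. The windows are chr1:171437311-171437560 (plus strand), chr6:93912964-93913213 (minus strand), chr6:77979668-77979917 (minus strand) and chr4:155361429-155361678 (minus strand).
F11r: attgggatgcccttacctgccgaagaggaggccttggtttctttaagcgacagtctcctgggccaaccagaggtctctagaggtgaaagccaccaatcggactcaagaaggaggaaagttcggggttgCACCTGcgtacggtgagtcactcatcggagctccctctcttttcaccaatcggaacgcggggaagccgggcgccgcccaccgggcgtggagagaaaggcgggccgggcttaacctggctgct
Magi1: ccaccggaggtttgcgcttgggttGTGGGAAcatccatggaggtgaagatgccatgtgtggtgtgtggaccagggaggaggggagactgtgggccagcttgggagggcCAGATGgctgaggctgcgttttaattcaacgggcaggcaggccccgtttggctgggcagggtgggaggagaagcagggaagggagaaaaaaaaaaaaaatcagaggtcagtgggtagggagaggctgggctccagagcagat
Ctnna2: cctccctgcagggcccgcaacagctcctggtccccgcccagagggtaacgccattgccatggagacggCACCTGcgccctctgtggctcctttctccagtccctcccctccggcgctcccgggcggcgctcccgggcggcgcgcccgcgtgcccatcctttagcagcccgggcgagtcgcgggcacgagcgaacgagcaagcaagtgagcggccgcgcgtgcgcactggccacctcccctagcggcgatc
Prkcz: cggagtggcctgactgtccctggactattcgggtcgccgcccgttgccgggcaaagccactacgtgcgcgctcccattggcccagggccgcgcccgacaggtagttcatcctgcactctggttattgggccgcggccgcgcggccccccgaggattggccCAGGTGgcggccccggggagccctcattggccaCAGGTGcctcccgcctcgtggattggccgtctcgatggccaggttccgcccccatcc
The motifs searched on both strands were CAGGTG, the E-box known from the Snail and Zeb repressors, CAGATG, an E-box known from proneural factors, and GTGGGAA, known from Rbpj, the DNA-binding partner of Notch. None of the matches printed overlaps another. CAGGTG begins 122 bases before the start in F11r, 182 bases before it in Ctnna2, and 90 and 57 bases before it in Prkcz, read as its reverse complement CACCTG in F11r and Ctnna2. For Prkcz 1 window is shown, while RefSeq lists 3 starts. In Magi1, shown at 1 of its 2 starts, CAGATG begins 142 bases and GTGGGAA 226 bases before the start. For a gene with several starts, the window with the most matches is shown. Windows not shown hold CAGGTG in Magi1 and CAGATG in Prkcz. Promoters were listed for 34 of the 43 genes, in 51 windows. CAGGTG was in 33.3% of these windows, beside 17.2% of all 32851 windows of the same length. CAGATG was in 15.7%, beside 14.4%, and GTGGGAA in 7.84%, beside 5.42%. The members' windows were also richer in G and C, with a median of 62.0%, beside 52.4% for all windows. By gene, CAGGTG was held by 5 of 12 genes with the higher level in the progenitors and by 2 of 7 with the higher level in the neurons. GTGGGAA was held by 4 of the 12 (Cgnl1, Llgl1, Magi1 and Patj) and by 0 of the 7. CAGATG was held by 3 of the 12 and by 3 of the 7. These matches describe letters in a window and were not tested.

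The Crumbs complex, an apical membrane complex built on a transmembrane Crumbs protein, had 5 of its 9 genes higher in the progenitors and 1 higher in the neurons. Crb2, the Crumbs protein known from neuroepithelium, had intensities of 408, 425 and 379.6 on the GFP+ arrays, against 85.5, 102 and 74.3 on the RFP+ arrays. The groups did not overlap, and the RFP+ arrays were all dim. Crb2 was 4.09-fold higher in GFP+ progenitors (2.03 ± 0.20 log2 units, adjusted p = 1.66e-07). Pals1, the adaptor that binds the Crumbs tail, had intensities of 1385, 1184 and 1541 on the GFP+ arrays, against 332, 413 and 356 on the RFP+ arrays. Every GFP+ array lay far above every RFP+ array, a 3.62-fold difference (1.85 ± 0.20 log2 units, adjusted p = 6.12e-07).

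Both multi-PDZ partners of Pals1 went the same way. Patj had intensities of 333, 325 and 351 on the GFP+ arrays, against 124, 106 and 125 on the RFP+ arrays (log2 difference 1.40 ± 0.20, adjusted p = 1.38e-05), dim on every RFP+ array. Mpdz, its close relative, had intensities of 1736, 1570.3 and 2259 on the GFP+ arrays, against 571, 611 and 616 on the RFP+ arrays (log2 difference 1.59 ± 0.21, adjusted p = 5.21e-06). GFP+ replicate 3 was the highest array for both, and neither gene's groups overlapped. Crb1, the Crumbs protein best known from the retina, was dim in both groups at 194, 140.5 and 221 on the GFP+ arrays, against 92.8, 113 and 39.5 on the RFP+ arrays. It passed as 2.15-fold higher in GFP+ progenitors (adjusted p = 0.00358), and at this level the fold depends on the offset of 16. Crb3, the short Crumbs protein of epithelia, did not pass, at 151 ± 9.5 in GFP+ progenitors and 212 ± 53.4 in RFP+ neurons (log2 difference -0.42 ± 0.22, adjusted p = 0.154).

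The Lin7 genes encode small PDZ proteins that bind Pals1 in epithelia and also sit at synapses. Lin7a had intensities of 43.2, 20.9 and 23.8 on the GFP+ arrays, against 88.5, 95.8 and 137 on the RFP+ arrays, dim on every array. The RFP+ arrays were the higher ones without overlap, by 2.75-fold on the offset scale (-1.46 ± 0.23 log2 units, adjusted p = 5.23e-05). Lin7b, also dim, averaged 113 ± 13.9 in GFP+ progenitors and 179 ± 52.2 in RFP+ neurons and did not pass (log2 difference -0.56 ± 0.22, adjusted p = 0.0665). It did pass when arrays were paired by replicate number (replicate block, adjusted p = 0.0302) and without RFP+ replicate 3 (log2 difference -0.78, adjusted p = 0.0192). Lin7c averaged 2577 ± 517 in GFP+ progenitors and 2638 ± 320.4 in RFP+ neurons, with a log2 difference of -0.05 ± 0.21 (95% interval -0.49 to 0.40). Its groups overlapped.

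**Figure D2:**
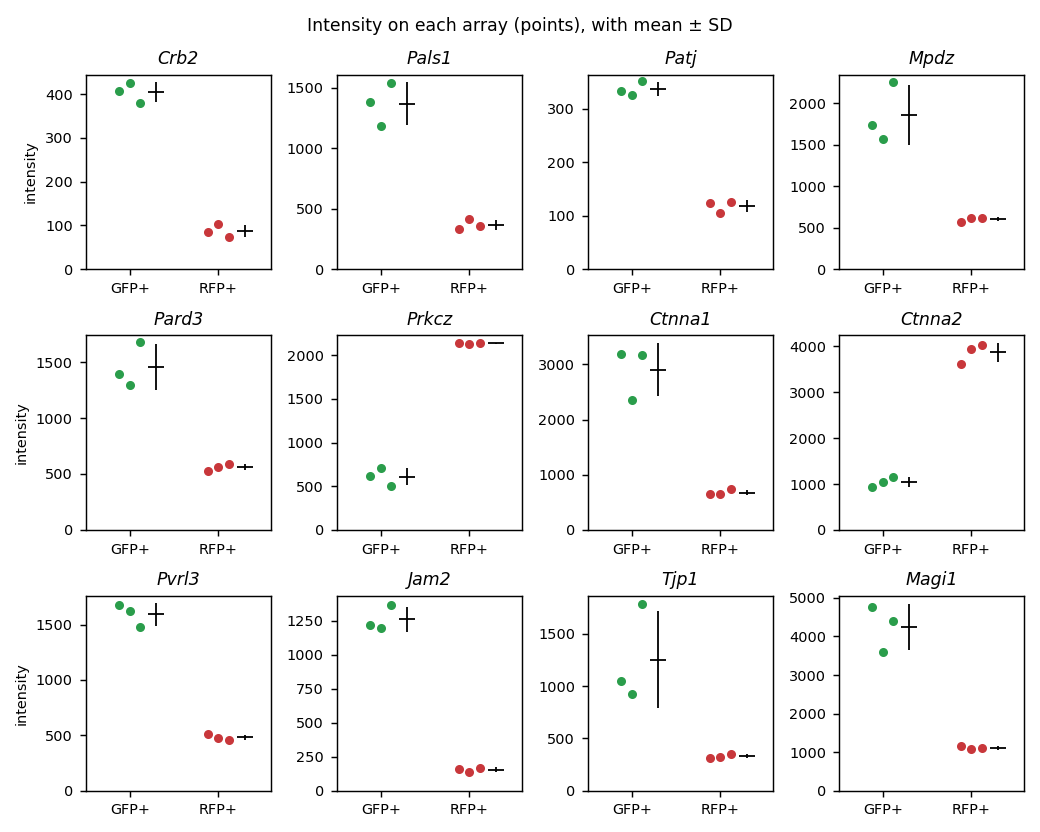
Intensity (linear scale, each panel with its own axis from 0) of 12 genes on each array, GFP+ left and RFP+ right, with the group mean ± SD as a black bar beside the points. In every panel the groups are apart. Prkcz and Ctnna2 are higher in RFP+ neurons, the other 10 are higher in GFP+ progenitors, and for Tjp1 GFP+ replicate 3 stands apart at 1785.

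The Par complex, in which Par3 and Par6 scaffolds hold an atypical protein kinase C, had 8 genes measured, of which 2 were higher in the progenitors and 2 in the neurons. Pard3, the scaffold that recruits the kinase to junctions, had intensities of 1394, 1293 and 1681 on the GFP+ arrays, against 529.8, 567 and 589 on the RFP+ arrays. The GFP+ arrays were all above the RFP+ arrays, by 2.54-fold (1.34 ± 0.20 log2 units, adjusted p = 2.92e-05). Pard3b, its relative, had intensities of 275, 220.2 and 322 on the GFP+ arrays, against 78.3, 104 and 70.6 on the RFP+ arrays. All RFP+ arrays were dim, and on the offset scale Pard3b was 2.87-fold higher in GFP+ progenitors (1.52 ± 0.22 log2 units, adjusted p = 1.47e-05). Its second probe set gave a log2 difference of 1.40, beside 1.52 for the probe set used.

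Of the atypical kinase genes, Prkcz passed and Prkci did not. Prkcz had intensities of 614, 706 and 506 on the GFP+ arrays, against 2145, 2131 and 2139 on the RFP+ arrays. The RFP+ arrays were nearly identical and stood above all GFP+ arrays, a 3.48-fold difference (-1.80 ± 0.20 log2 units, adjusted p = 8.70e-07). The second Prkcz probe set gave -1.65. In neurons this gene is known for a short brain form, PKM zeta, and these probe sets were not assigned to one form or the other. Prkci, the kinase required for adherens junctions in the neuroepithelium, had intensities of 1619, 1149.9 and 1591 on the GFP+ arrays, against 1042, 1051 and 1119 on the RFP+ arrays. Its groups did not overlap, but it did not pass (log2 difference 0.42 ± 0.21, adjusted p = 0.135, 95% interval -0.01 to 0.85).

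Of the 3 Par6 genes, which encode the adaptor between Cdc42 and the kinase, 1 was called. Pard6a had intensities of 211, 216 and 194 on the GFP+ arrays, against 299, 312 and 301 on the RFP+ arrays and was called 1.44-fold higher in RFP+ neurons (-0.52 ± 0.19 log2 units, adjusted p = 0.049). That call ended when any 1 of the 6 arrays was left out (log2 difference -0.55 to -0.48, adjusted p = 0.0664 to 0.131). Pard6b averaged 382 ± 133 in GFP+ progenitors and 334 ± 83.1 in RFP+ neurons, and Pard6g averaged 1393 ± 391 in GFP+ progenitors and 1429 ± 75.5 in RFP+ neurons. Neither passed, with log2 differences of 0.16 ± 0.25 and -0.07 ± 0.22, and both had overlapping groups. Cdc42, the small GTPase that activates the complex, was bright in both groups at 6085 ± 810.5 in GFP+ progenitors and 7687 ± 767 in RFP+ neurons and did not pass (log2 difference -0.34 ± 0.20, adjusted p = 0.219).

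Of 4 genes of the Scribble group, the basolateral counterpart of the apical complexes, 1 passed. Llgl1, a Lethal giant larvae gene whose loss in mouse brain is known to disturb progenitor polarity, had intensities of 1842, 1692 and 1349 on the GFP+ arrays, against 1036, 1219 and 993 on the RFP+ arrays. The groups did not overlap, and Llgl1 was called 1.49-fold higher in GFP+ progenitors (0.57 ± 0.21 log2 units, adjusted p = 0.0417). This call ended when any 1 array other than GFP+ replicate 3 was left out (adjusted p = 0.0528 to 0.129). Llgl2, dim in both groups at 84.8, 47.9 and 40.4 on the GFP+ arrays, against 139, 84.3 and 68.3 on the RFP+ arrays, did not pass (-0.62 ± 0.25 log2 units, adjusted p = 0.0743). It passed with the replicate block (adjusted p = 0.0121), without GFP+ replicate 1 (log2 difference -0.87, adjusted p = 0.0198) and without RFP+ replicate 3 (-0.80, adjusted p = 0.0358). The scaffold gene Scrib averaged 1516 ± 139 in GFP+ progenitors and 1249 ± 154 in RFP+ neurons (log2 difference 0.28 ± 0.20, adjusted p = 0.31), and its groups overlapped. Dlg5, a scaffold of the Discs large family known to help deliver cadherins to the membrane, averaged 1779.6 ± 252 in GFP+ progenitors and 1295 ± 98 in RFP+ neurons. Its groups did not overlap, and it did not pass (log2 difference 0.45 ± 0.20, adjusted p = 0.105).

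Among catenins, the linkers between cadherins and the cytoskeleton, 6 genes were measured, of which 1 was higher in the progenitors and 3 in the neurons. Ctnna1, the epithelial alpha-catenin, had intensities of 3187, 2347 and 3179 on the GFP+ arrays, against 642, 652 and 734 on the RFP+ arrays. GFP+ replicate 2 was the lowest of its group and still above all RFP+ arrays (2.07 ± 0.21 log2 units, adjusted p = 1.85e-07). Ctnna2, the neural alpha-catenin, had intensities of 935, 1048 and 1154 on the GFP+ arrays, against 3624, 3942 and 4034 on the RFP+ arrays. Here the RFP+ arrays were all higher, without overlap (-1.87 ± 0.20 log2 units, adjusted p = 3.81e-07), and the progenitors were well above the near-background level. Ctnna3, known from heart, was dim on all arrays at 51.6, 30.3 and 20 on the GFP+ arrays, against 73.3, 62.1 and 36.1 on the RFP+ arrays and did not pass (-0.56 ± 0.25 log2 units, adjusted p = 0.0985). It passed with the replicate block (adjusted p = 0.0223), without GFP+ replicate 1 (log2 difference -0.80, adjusted p = 0.0277) and without RFP+ replicate 3 (-0.79, adjusted p = 0.0322).

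Of the delta-catenins, which hold cadherins at the membrane, the neural one passed and the widely expressed one did not. Ctnnd2, the neural member, had intensities of 3189, 3419 and 3372 on the GFP+ arrays, against 5922, 5909 and 5340.4 on the RFP+ arrays and was 1.72-fold higher in RFP+ neurons (-0.78 ± 0.20 log2 units, adjusted p = 0.00456). Ctnnd1, the widely expressed member, averaged 2136 ± 607 in GFP+ progenitors and 1709 ± 153 in RFP+ neurons. GFP+ replicate 3 was the highest array at 2788, GFP+ replicate 2 lay within the RFP+ range, and the gene did not pass (log2 difference 0.29 ± 0.22, adjusted p = 0.351). Jup, which encodes plakoglobin, a catenin of desmosomes and adherens junctions, had intensities of 423, 499 and 482 on the GFP+ arrays, against 853, 870.4 and 697 on the RFP+ arrays. The RFP+ arrays were higher without overlap, by 1.7-fold (-0.76 ± 0.20 log2 units, adjusted p = 0.00674). With both arrays numbered 1 left out, Ctnnd2 and Jup missed the threshold (log2 differences -0.72 and -0.65, adjusted p = 0.0604 and 0.0963).

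Of the nectins, immunoglobulin-like adhesion molecules that seed adherens junctions, and their actin linker afadin, 1 of 4 genes passed. Pvrl3, which encodes a nectin of adherens junctions, had intensities of 1677, 1618 and 1478 on the GFP+ arrays, against 508, 478 and 463 on the RFP+ arrays. The arrays were tight within each group and did not overlap, and Pvrl3 was 3.22-fold higher in GFP+ progenitors (1.69 ± 0.20 log2 units, adjusted p = 1.26e-06). Pvrl1 averaged 748 ± 161 in GFP+ progenitors and 752 ± 98.2 in RFP+ neurons, with a log2 difference of -0.02 ± 0.22 (95% interval -0.47 to 0.43). Pvrl2 averaged 457 ± 47.7 in GFP+ progenitors and 398 ± 97.5 in RFP+ neurons, with 0.22 ± 0.22 (95% interval -0.23 to 0.67). Afdn, the gene of afadin, averaged 2154 ± 504 in GFP+ progenitors and 2255 ± 129 in RFP+ neurons, with -0.09 ± 0.21 (95% interval -0.53 to 0.35). The groups of all 3 overlapped and none passed (adjusted p = 0.953, 0.470 and 0.781, in that order).

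Of 4 tight junction membrane protein genes, 3 were higher in GFP+ progenitors. Jam2, a junctional adhesion molecule gene, had intensities of 1218, 1193 and 1369 on the GFP+ arrays, against 159, 138 and 171 on the RFP+ arrays. All RFP+ arrays were dim and the groups were far apart, a 7.44-fold difference (2.90 ± 0.20 log2 units, adjusted p = 3.08e-09). Jam3 had intensities of 1496, 1529.8 and 1881 on the GFP+ arrays, against 667, 510.1 and 756 on the RFP+ arrays and was 2.52-fold higher in the progenitors (1.33 ± 0.21 log2 units, adjusted p = 5.97e-05). F11r, the gene of junctional adhesion molecule A, had intensities of 105, 206 and 212 on the GFP+ arrays, against 32.6, 16.7 and 53.4 on the RFP+ arrays. It was dim in both group means, and GFP+ replicate 1 was the lowest GFP+ array, yet above all RFP+ arrays (1.93 ± 0.28 log2 units, adjusted p = 1.68e-05). Ocln, which encodes occludin, was dim on every array at 17, 62.9 and 52.6 on the GFP+ arrays, against 43, 33.7 and 38.4 on the RFP+ arrays. Its groups overlapped, GFP+ replicate 1 was the lowest of the 6, and it did not pass (log2 difference 0.05 ± 0.26, adjusted p = 0.894).

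Of 6 junction scaffold genes, 3 were higher in the progenitors and 1 in the neurons. Tjp1, which encodes the zonula occludens scaffold linking junctions to actin, had intensities of 1051, 925 and 1785 on the GFP+ arrays, against 318, 320.2 and 353 on the RFP+ arrays. GFP+ replicate 3 stood above the other GFP+ arrays, and the lowest GFP+ array was still far above the RFP+ arrays (1.82 ± 0.23 log2 units, adjusted p = 4.68e-06). Magi1, a scaffold of tight and adherens junctions, had intensities of 4763, 3601 and 4405 on the GFP+ arrays, against 1163, 1075 and 1100.2 on the RFP+ arrays and was 3.76-fold higher in GFP+ progenitors (1.91 ± 0.20 log2 units, adjusted p = 3.57e-07). Magi3, a related scaffold, ran the other way with intensities of 369, 514 and 435 on the GFP+ arrays, against 889, 978 and 778 on the RFP+ arrays, and was 1.98-fold higher in RFP+ neurons (-0.98 ± 0.21 log2 units, adjusted p = 0.00103). For both Magi genes the arrays of the groups did not overlap.

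The epithelial scaffold genes were dim. Cgnl1, which encodes paracingulin, had intensities of 81, 129 and 178 on the GFP+ arrays, against 61.9, 44.8 and 66.5 on the RFP+ arrays and passed as higher in GFP+ progenitors (0.93 ± 0.24 log2 units, adjusted p = 0.00581). Cgn, the gene of cingulin, averaged 154 ± 15.9 in GFP+ progenitors and 173 ± 36.6 in RFP+ neurons (log2 difference -0.14 ± 0.21), and Tjp3 averaged 143 ± 13 in GFP+ progenitors and 184 ± 29.2 in RFP+ neurons (log2 difference -0.32 ± 0.20). Neither passed (adjusted p = 0.65 and 0.246). In all, 10 of the 43 genes were dim in both groups (Crb1, Lin7a, Lin7b, Llgl2, Ctnna3, F11r, Ocln, Tjp3, Cgn and Cgnl1), and 4 of these 10 passed. Crb2, Patj, Pard3b and Jam2 were dim in the RFP+ group alone, and Pard6a and Crb3 in the GFP+ group alone. The fold of any gene dim in a group depends on the offset.

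Numb and Rhoa act on junctions from the cytoplasm. Numb, an endocytic adaptor known from Notch signalling and from keeping cadherin at radial glial junctions, had intensities of 871, 801 and 1049 on the GFP+ arrays, against 451, 427 and 463 on the RFP+ arrays. The groups did not overlap, and Numb was 1.98-fold higher in GFP+ progenitors (0.99 ± 0.20 log2 units, adjusted p = 7.56e-04). Rhoa, a small GTPase that drives actomyosin tension at junctions, was bright on all arrays at 7982, 8878 and 7749 on the GFP+ arrays, against 6138, 6313 and 5443 on the RFP+ arrays. Its groups did not overlap, but it did not pass (log2 difference 0.46 ± 0.20, adjusted p = 0.0867). It passed with the replicate block (adjusted p = 0.0409), and both of its probe sets gave a log2 difference of 0.46.

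The log2 ratio of 2 related genes was taken on each array and compared between groups for 12 pairs. The test was a two-sided exact permutation test, which with 3 against 3 arrays cannot go below p = 0.1. The pairs were chosen with earlier results of these data known. Each difference follows from the log2 differences of the 2 genes given above, so it is not separate support for them. The shares over all gene pairs were not computed. Among pairs in which both genes were above the near-background level, the Ctnna1 over Ctnna2 ratio differed most, by 3.94 on the log2 scale, with ratios spread by an SD of 0.30 among GFP+ arrays and 0.07 among RFP+ arrays. Prkci over Prkcz differed by 2.22, Pvrl3 over Pvrl1 by 1.71 and Ctnnd1 over Ctnnd2 by 1.06. In the next 4 pairs 1 or both genes were dim in at least 1 group, so that the size of the ratio depends on the offset of 16. Tjp1 over Tjp3 differed by 2.14, Llgl1 over Llgl2 by 1.19 and Crb2 over Crb1 by 0.93, where Tjp3, Llgl2 and Crb1 were dim in both groups, and Jam3 over Jam2 differed by -1.56, where Jam2 was dim in the RFP+ group. In these 8 pairs the groups did not overlap, and each reached the smallest possible p of 0.1 in the exact permutation test (0.15 adjusted over the 12 pairs). For Crb2 over Crb1 the exact permutation p was 0.2 with quantile normalization, with an offset of 1 and without any 1 array other than RFP+ replicate 3. For Ctnnd1 over Ctnnd2 it was 0.2 without RFP+ replicate 1. In the other pairs the groups overlapped, with 0.68 for Pard6b over Pard6a, 0.51 for Lin7c over Lin7b, 0.19 for Mpdz over Patj and -0.18 for Pard3 over Pard3b (exact permutation p = 0.2, 0.2, 0.3 and 0.4). Each of these 4 also holds a gene that was dim in at least 1 group. Taken within arrays of the same replicate number, a comparison added after seeing the data, the difference had one sign in all 3 number pairs for 10 of the 12 ratios. These include Pard6b over Pard6a (0.35, 1.09 and 0.60) and Lin7c over Lin7b (0.43, 0.79 and 0.32), and the exceptions were Mpdz over Patj and Pard3 over Pard3b. An exact test over the sign flips of 3 pairs cannot go below p = 0.25, which these 10 reached.

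**Figure D3:**
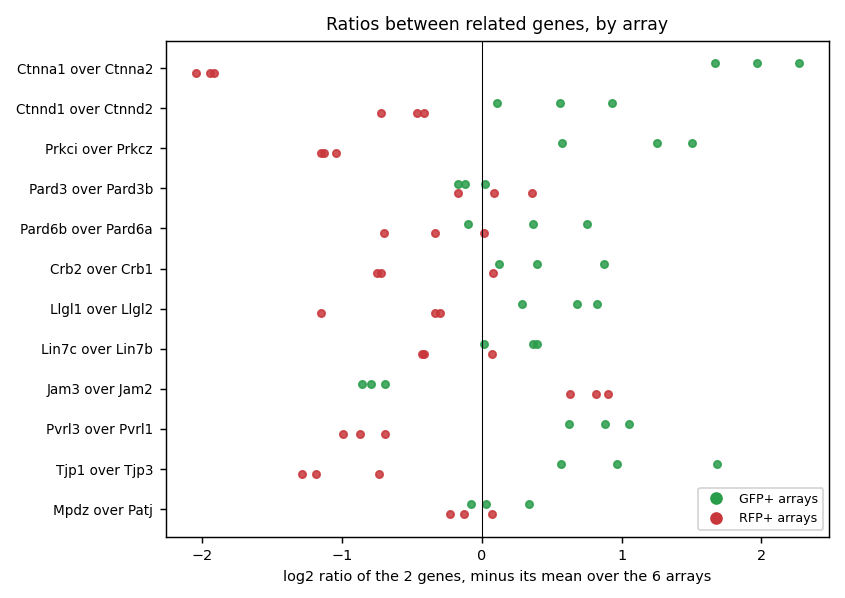
Log2 ratio of 2 related genes on each array, minus that ratio's mean over the 6 arrays, for 12 pairs, with GFP+ arrays in green above RFP+ arrays in red. The groups are widest apart for Ctnna1 over Ctnna2 (difference 3.94), lie in the opposite order for Jam3 over Jam2 (-1.56), and overlap for 4 pairs.

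Other genes of junctions and polarity, 55 measured of a list of 57, had members higher in each group. Of these, 22 (40%) were higher in the progenitors, beside 13.8% of all genes, 11 (20%) were higher in the neurons, beside 16.2% of all genes, and 22 did not pass. Their median log2 difference was 0.09, beside -0.08 for all genes. Cldn5 and Prom1, both among the 22 higher in the progenitors, also stand in the endothelial and the radial glia marker list, respectively. Those highest in GFP+ progenitors were Msn, which encodes the actin-membrane linker moesin (2.46 ± 0.24 log2 units, adjusted p = 1.35e-07), Vcl, the gene of the junction protein vinculin (2.08 ± 0.22 log2 units, adjusted p = 2.81e-07), and the planar polarity cadherin gene Celsr1 (1.95 ± 0.21 log2 units, adjusted p = 4.23e-07). Those furthest the other way were Dlg2 (-2.58 ± 0.21 log2 units, adjusted p = 1.18e-08) and Dlg4 (-1.67 ± 0.20 log2 units, adjusted p = 1.61e-06), Discs large scaffolds of the postsynapse, and the claudin gene Cldn3 (-2.32 ± 0.20 log2 units, adjusted p = 2.64e-08). Cldn3 had intensities of 34.2, 34.5 and 35.8 on the GFP+ arrays, against 246, 214 and 253 on the RFP+ arrays, so its GFP+ level was dim. Dlg2, with a mean of 199 in the GFP+ group and 1265 in the RFP+ group, was also dim in the GFP+ group. Msn, known also from endothelium, had intensities of 1600, 1017 and 2028 on the GFP+ arrays, against 222, 262 and 295 on the RFP+ arrays. It was lowest on GFP+ replicate 2, and the part of endothelial RNA in its difference was not tested.

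Endothelial markers varied among the GFP+ arrays more than mural markers did, and several junction genes varied there too. Deviations from the mean of the 3 GFP+ arrays, in log2 units, are given for GFP+ replicates 1, 2 and 3 in that order. The endothelial list had median deviations of -0.91, 0.27 and 0.55, and 13 of its 16 genes were lowest on GFP+ replicate 1. Pecam1, an endothelial adhesion gene, had intensities of 201, 407 and 695 on the GFP+ arrays, against 38.5, 52.1 and 63.4 on the RFP+ arrays. The mural list had medians of 0.13, -0.17 and 0.03. The medians of the 43 junction and polarity genes lay between -0.03 and 0.04. Of the 43, 11 were lowest on GFP+ replicate 1, beside 7070 of all 19938 genes tested.

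Ocln (-0.77, 0.49 and 0.28), F11r (-0.60, 0.28 and 0.32) and Cgnl1 (-0.53, 0.05 and 0.47) were lowest on GFP+ replicate 1, as the endothelial list was. These genes were dim in both groups. Also lowest there were Ctnna2, Ctnnd2, Jup and Magi3, all higher in RFP+ neurons, and Jam3, Pard6g, Lin7c and Tjp3. Tjp1 (-0.19, -0.37 and 0.56) was highest on GFP+ replicate 3, as the endothelial list was, and lowest on replicate 2. Magi1 (0.17, -0.23 and 0.06) and Ctnna1 (0.15, -0.29 and 0.14) had the same order of arrays as the mural list. Prkci, Crb3, Cgn and Lin7a also had that order. Matches in array order, or in the highest or lowest array, were not tested, and their shares among all genes were not computed. Only a few orders of 3 arrays are possible, so some genes of any list have the same order. Jam2 (-0.05, -0.07 and 0.12) was highest on GFP+ replicate 3 and lowest on replicate 2. Without GFP+ replicate 1, the log2 differences between the groups for F11r, Cgnl1, Jam2 and Tjp1 were 2.23, 1.20, 2.92 and 1.91. Without GFP+ replicate 3, that of Tjp1 was 1.53. All of these passed the threshold.

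**Figure D4:**
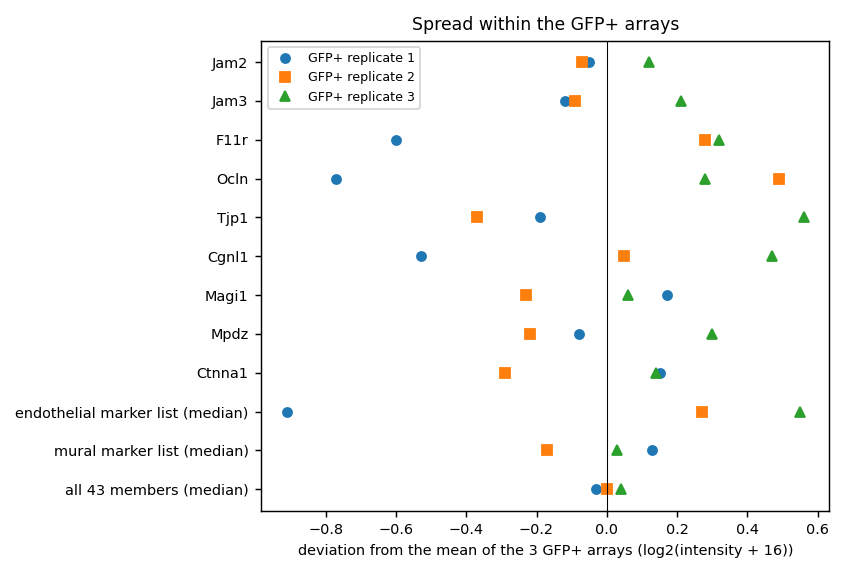
Deviation of each GFP+ array from the mean of the 3 GFP+ arrays (log2(intensity + 16) scale) for 9 genes, for the medians of the endothelial and mural marker lists, and for the median of the 43 junction and polarity genes. GFP+ replicate 1 lies low for the endothelial list (-0.91), Ocln (-0.77), F11r (-0.60) and Cgnl1 (-0.53), GFP+ replicate 3 lies high for the endothelial list (0.55) and Tjp1 (0.56), and GFP+ replicate 2 is the lowest for the mural list (-0.17), Magi1 (-0.23) and Ctnna1 (-0.29).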

How the data were processed

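The authors deposited 1 intensity per probe set and array, made with the Affymetrix Expression Console per the submitters' processing notes. Its version, background correction, normalization and summarisation were not stated there or elsewhere in the labels. The deposited intensities are linear, with array medians of 210.3 to 221. Of 35557 probe sets, 21789 carried 1 gene symbol, 1621 several and 12147 were unnamed here. The probe set with the highest mean over the 6 arrays stood for each gene, leaving 19938 genes. log2(intensity + 16) was fitted with limma 3.58.1 in R 4.3.3 (lmFit and eBayes, two-sided), with Benjamini-Hochberg adjustment over all genes. The number of arrays limits the precision (SE 0.19 to 0.28 for the members). The pipeline was tested on simulated data. Python 3.11.15 made tables and figures.

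The members, lists and tests were chosen with earlier results of these data known. Every member is named, and of the other junction genes the 3 past the threshold with the largest difference each way. The members and families are described by counts, with no list test.

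Titles carry replicate numbers. Deviations from the group means of same-numbered arrays correlated at 0.204, 0.288 and 0.361 across genes, and those of other pairs at -0.266 to 0.00416. Deviations sum to 0 within a group, so positive values for same numbers pull the other pairs down. The values of the other pairs are therefore not separate evidence. On this basis the numbers are taken to pair the arrays. The pairing comes from the titles and these values, and the labels do not say what a number stands for. The fit without it was kept, and the replicate block was run as an alternative, as were quantile normalization, median centring, an offset of 1, leaving out the dimmest 30% of genes, averaging probe sets, an intensity trend with robust moderation, leaving out each array, and leaving out both arrays numbered 1.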

Additional observations from a re-analysis of the deposited data

How the results depend on the processing

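Of the 24 genes past the threshold, 20 passed in every alternative in which they were tested and 0 changed direction in any. The exceptions are Pard6a, Llgl1, Ctnnd2 and Jup. Without the dimmest 30% of genes only 36 members were tested, and 14 were higher in GFP+ progenitors and 7 in RFP+ neurons. Crb1, Lin7a, F11r and Cgnl1 passed in the main fit and were not tested in that setting. Leaving out both arrays numbered 1 lowered the count of all genes past the threshold to 3850 and that of members higher in RFP+ neurons to 4; 2 arrays per group remain there. Single arrays left out gave 4506 to 5566 genes past the threshold, 16 to 17 members higher in GFP+ progenitors and 6 to 9 higher in RFP+ neurons. Beside the results above, Llgl1 also missed the threshold with median centring (adjusted p = 0.0538), with an offset of 1 (0.0598) and without both arrays numbered 1 (0.258), and Pard6a with an intensity trend (0.0516) and without both arrays numbered 1 (0.155). Rhoa passed with quantile normalization (0.0424) and an intensity trend (0.0150), and Lin7b with median centring (0.0471) and without the dimmest 30% of genes (0.0399). With the replicate block, the calls of Lin7b, Llgl2, Ctnna3 and Rhoa were gained, and no other member's call changed. That fit called 18 members higher in GFP+ progenitors and 10 higher in RFP+ neurons. Of all 19938 genes it called 3324 and 4047, where the main fit called 2742 and 3236.

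Sign changes were seen only for genes near 0 that did not pass: Pard6g (0.14 without GFP+ replicate 1, 0.10 without both arrays numbered 1), Lin7c (0.11 without GFP+ replicate 1, 0.05 without RFP+ replicate 2, 0.06 without both arrays numbered 1), Pard6b (-0.08 without GFP+ replicate 2, -0.03 without RFP+ replicate 3), Afdn (0.02 without GFP+ replicate 2), Ocln (-0.19 and -0.09 without GFP+ replicates 2 and 3, -0.01 without RFP+ replicate 2) and Pvrl1 (0.13 without GFP+ replicate 3, 0.03 and 0.04 without RFP+ replicates 1 and 2). Over the single arrays left out these genes ranged up to 0.42 (Pard6b) and 0.44 (Ocln) and down to -0.27 (Pard6g and Afdn) and -0.17 (Pvrl1). The cause was not tested. None was seen with another normalization or centring. The 12 ratio differences kept their signs in every alternative run on them, including pairing by replicate number (replicate block), which was added after seeing the data; the exact p of Crb2 over Crb1 and of Ctnnd1 over Ctnnd2 left the smallest possible value as given above. With both arrays numbered 1 left out the exact test cannot go below p = 0.3333.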
